A study of Homo sapiens with 12 samples.

Results

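The arrays described here compared OCI-Ly7 cells treated for 24 hours with 10 μM ibrutinib with cells given vehicle for the same time. OCI-Ly7, which the labels call a B-cell non-Hodgkin lymphoma line, was derived long ago from a diffuse large B-cell lymphoma and was grown in DMEM with fetal bovine serum. The comparison rests on 6 of the 12 arrays of the study, 3 for 10 μM ibrutinib and 3 for vehicle, chosen by their labels alone. The other 6 arrays hold 1 μM ibrutinib and 1 μM PLS-123, 3 each, and enter only the shared estimate of the spread unless they are named. Every group is the same line and differs only in what was added. Separate cultures are not stated for the 3 samples in each group, so the p values measure the spread between these samples, which may be technical.

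Ibrutinib binds a cysteine of Btk, the kinase that relays the B-cell receptor signal, and at high concentration it also reaches other kinases that carry a cysteine at the same place. B cells of the germinal centre type depend on transcription factors such as BCL6 for their identity, and they lose surface receptors and change their homing when that state is left. In many cell types a block of growth signals lets FOXO factors into the nucleus, while ATF4 serves the supply of amino acids for protein synthesis. The question taken up here is which functions, beyond the receptor pathway itself, were carried by the genes that moved at the high concentration.

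Each array was an Affymetrix U133 Plus 2.0, on which a gene has 1 or several probe sets. Values are intensities normalized by the authors with RMA, and fold changes are on the log2 scale, 10 μM ibrutinib minus vehicle. A gene is read on its brightest probe set, and it is said to have risen or fallen where limma's adjusted p, by the Benjamini-Hochberg method over 54613 probe sets, was under 0.05. A gene is called dim where its mean log2 intensity lay under 3.87, the middle value over the probe sets. The median intensity of an array lay between 14.5 and 14.8 in the 6 arrays. The log2 difference between the 3' and 5' control probe sets of ACTB, which grows as transcripts are shortened, was 2.74 ± 0.08 with 10 μM ibrutinib and 2.64 ± 0.04 with vehicle (SD, n = 3 arrays each, p = 0.1 by a two-sided exact permutation of the arrays, which cannot go lower with 3 against 3). The same difference for GAPDH was 0.39 ± 0.01 with 10 μM ibrutinib and 0.31 ± 0.04 with vehicle (SD, n = 3 each, exact p = 0.1), and the part of either in the results was not tested. The number of arrays limits the precision of every value. Of the 11 B-cell lineage markers measured, none was dim. CD22, VPREB3, CD74, MS4A1, EBF1 and HLA-DRA were lower with 10 μM ibrutinib and POU2AF1 was higher, and the rest did not pass the test. The call of POU2AF1 was lost without any 1 array.

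The treatment moved genes in both directions, and the rises were larger. Of 19775 genes, 1327 rose (6.71%) and 1151 fell (5.82%). The median log2 fold change was 0.54 among the genes that rose and -0.46 among those that fell, and it was -0.02 over all genes. More than a 2-fold change was seen in 206 genes that rose and 122 that fell. A rise of more than 8-fold was found in 11 genes and a fall of that size in 6. Among the 12040 genes that were not dim, 10.4% rose and 9.03% fell. The counts of each gene list below are to be read beside these shares. The lists and their members were chosen with earlier results of these data known, so a higher share is a description, not a test. Of the genes that rose, 108 started from a dim level in vehicle cells, and of those that fell, 83 ended at a dim level with 10 μM ibrutinib. A bulk sample cannot tell more RNA per cell from more cells that carry it. By probe sets, 2944 rose (5.39%) and 2523 fell (4.62%). By the study's own thresholds, 1.5-fold with p under 0.05 before adjustment, 1371 probe sets were higher (2.51%) and 806 lower (1.48%). The prevailing direction depends on the scaling: of the called probe sets, 46.1% were lower on the authors' scale, 40.9% after centring each array on the mean of 100 normalization control probe sets and 51.2% after centring on their median.

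**Figure D1:**
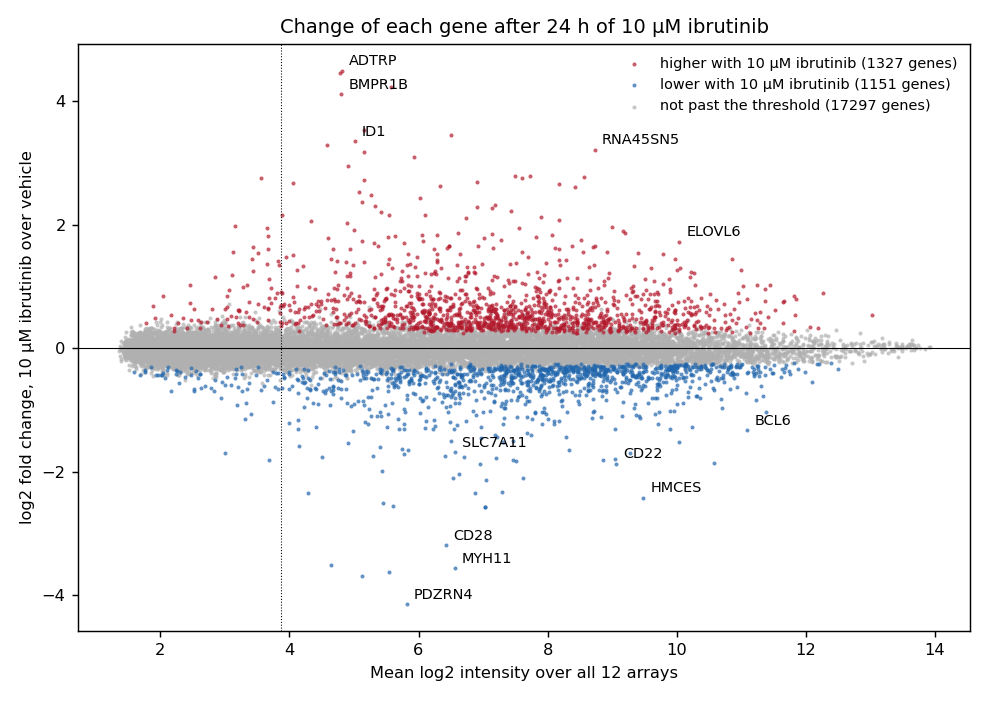
Each point is 1 of 19775 genes, with its mean log2 intensity over all 12 arrays on the x axis and its log2 fold change, 10 μM ibrutinib over vehicle, on the y axis. Red points rose (1327), blue points fell (1151), grey points did not pass the test, and the dotted line marks the dim limit of 3.87.

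The 20 genes with the largest rises, picked among called genes whose groups did not overlap, came from unrelated families. Of these, 11 were dim in vehicle cells. ADTRP, a membrane hydrolase of fatty acid esters, had intensities of 99.7, 132 and 128 with 10 μM ibrutinib, against 5.17, 6.34 and 4.53 with vehicle. TJP1, the junction scaffold ZO-1, had 127, 126 and 126 with 10 μM ibrutinib and 6.38, 4.67 and 6.49 with vehicle. SH2D1A, the adaptor SAP of lymphocyte receptors, had 216, 209 and 194 against 9.38, 14.3 and 9.96 with vehicle. In each of the 3 the arrays of a group lay close together and the groups were far apart. The vehicle values of these 3 were dim, near the background of the array, so that the exact size and order of such rises are uncertain. BMPR1B, a type I receptor of bone morphogenetic proteins, had 123, 153 and 97.1 with 10 μM ibrutinib, against 6.4, 6.98 and 7.95 with vehicle. ID1, a target of that receptor family that blocks DNA binding by basic helix-loop-helix factors, had 101, 138 and 109 against 13.7, 10.7 and 9.71 with vehicle. Both were dim in vehicle cells.

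Several of these risers act in signaling by prostaglandins, cyclic AMP, tyrosine phosphate or immunoglobulin. PTGER4, the prostaglandin E2 receptor EP4, had 115, 122 and 107 with 10 μM ibrutinib and 9.47, 9.07 and 11.4 with vehicle. PDE4B, which breaks down cyclic AMP, had 279, 293 and 249 against 44.9, 39.7 and 42.3 with vehicle. PTPRE, a receptor-type tyrosine phosphatase, had 277, 299 and 289 against 30.4, 25.9 and 23.5 with vehicle. The groups of these 3 genes did not overlap. The change was 6.47-fold for PDE4B and 10.9-fold for PTPRE, while PTGER4 was dim with vehicle. FCMR, the Fc receptor for IgM, had 193, 182 and 177 with 10 μM ibrutinib and 17.7, 31.9 and 17.2 with vehicle, where array B was the highest of its group. CD69, an early activation antigen that holds lymphocytes in tissue, had 39.1, 54.4 and 32.4 against 7.20, 7.12 and 5.17 with vehicle.

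The others among the 20 were FRMD3, a FERM domain protein (log2 fold change 3.28), FBXO15, an F-box protein of ubiquitin ligases (3.17), ADM, the peptide hormone adrenomedullin (2.95), and LITAF, a protein of late endosomes (2.78). To them came WASF3, a driver of actin branching (2.78), CPNE2, a lipid-binding copine (2.75), PHYH, which starts the peroxisomal breakdown of phytanic acid (2.72), and FAM43A (2.77) and CCDC112 (2.76). All 20 rises lay between 2.67 and 4.49, and their highest adjusted p was 1.59e-06. The probe set annotated to RNA45SN5, a precursor of ribosomal RNA, had 1345, 1406 and 1377 with 10 μM ibrutinib and 127, 165 and 157 with vehicle (3.21 ± 0.12, standard error). The array's control probe sets for ribosomal RNA did not move as one. The 28S 5' control had 8273, 8324 and 7867 with 10 μM ibrutinib, against 3361, 3456 and 3677 with vehicle, the 28S middle control was 0.67 higher on the log2 scale, and the 18S 3' and 5' controls differed by -0.24 and 0.02. What part carry-over of ribosomal RNA into the labelled samples has in the RNA45SN5 value was not tested.

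The 20 largest falls held several immune receptors and several genes better known from other tissues. PDZRN4, a PDZ and RING domain protein, had 13.4, 17.9 and 18.1 with 10 μM ibrutinib, against 284, 287 and 290 with vehicle (17.6-fold). MUC19, a gel-forming mucin, had 9.56, 10.4 and 10.6 against 144, 138 and 113 with vehicle, dim in every treated array. LINC01857, a long non-coding RNA, had 13.4, 15 and 16 against 191, 177 and 177 with vehicle (12.3-fold). The 3 genes were low in every treated array and higher in every vehicle array, and the selection of the 20 required groups without overlap. MYH11, the smooth muscle myosin heavy chain, had 17.6, 57.5 and 40.6 with 10 μM ibrutinib and 434, 372 and 421 with vehicle. Its treated arrays spread over more than 3-fold, which gives it the largest standard error of the 40 genes (-3.56 ± 0.34), and 6 of its 7 probe sets fell. NLRP4, of the NOD-like receptors, had 5.73, 8.6 and 9.25 against 81.2, 88.2 and 94.5 with vehicle.

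Among the immune genes of this set, CD28, the costimulatory receptor known from T cells, had 29.7, 29.4 and 29.0 with 10 μM ibrutinib and 279, 257 and 273 with vehicle (9.16-fold). TLR10, a Toll-like receptor expressed mainly by B cells, had 44.4, 62.5 and 50.3 against 294, 337 and 295 with vehicle. HLA-DOB, a brake on class II peptide loading, had 21.7, 18.1 and 20 against 109, 123 and 106 with vehicle. The 2 groups of arrays were again apart in each of them, as the selection required. CD1C, which presents lipid antigens, had 80.8, 55.6 and 60.2 with 10 μM ibrutinib and 304, 289 and 261 with vehicle. TNFRSF17, the plasma cell receptor BCMA, had 49.0, 57.8 and 57.2 against 228, 261 and 213 with vehicle. HMCES, which shields abasic sites in DNA, had 359, 356 and 376 with 10 μM ibrutinib and 2071, 1830 and 1952 with vehicle.

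The others among the 20 falls were KMO, an enzyme of tryptophan breakdown (log2 fold change -2.57), HDAC9, a class IIa histone deacetylase (-2.56), CCDC110 (-2.35), and PNOC, the precursor of the peptide nociceptin (-2.33). DMD, the muscle protein dystrophin (-2.10), DST, a linker of the cytoskeleton (-2.04), RASGRP3, which switches on Ras (-1.98), and PTPRS, a receptor-type tyrosine phosphatase (-1.88), complete them with LOXL2, a lysyl oxidase that cross-links collagen (-2.34). The highest adjusted p of the 20 was 1.36e-05. For LOXL2 only 1 of 4 probe sets fell, with a median of -0.20 over the 4, and for DST 4 of 10 fell. None of the 40 genes lost its call under any alternative fit.

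**Figure D2:**
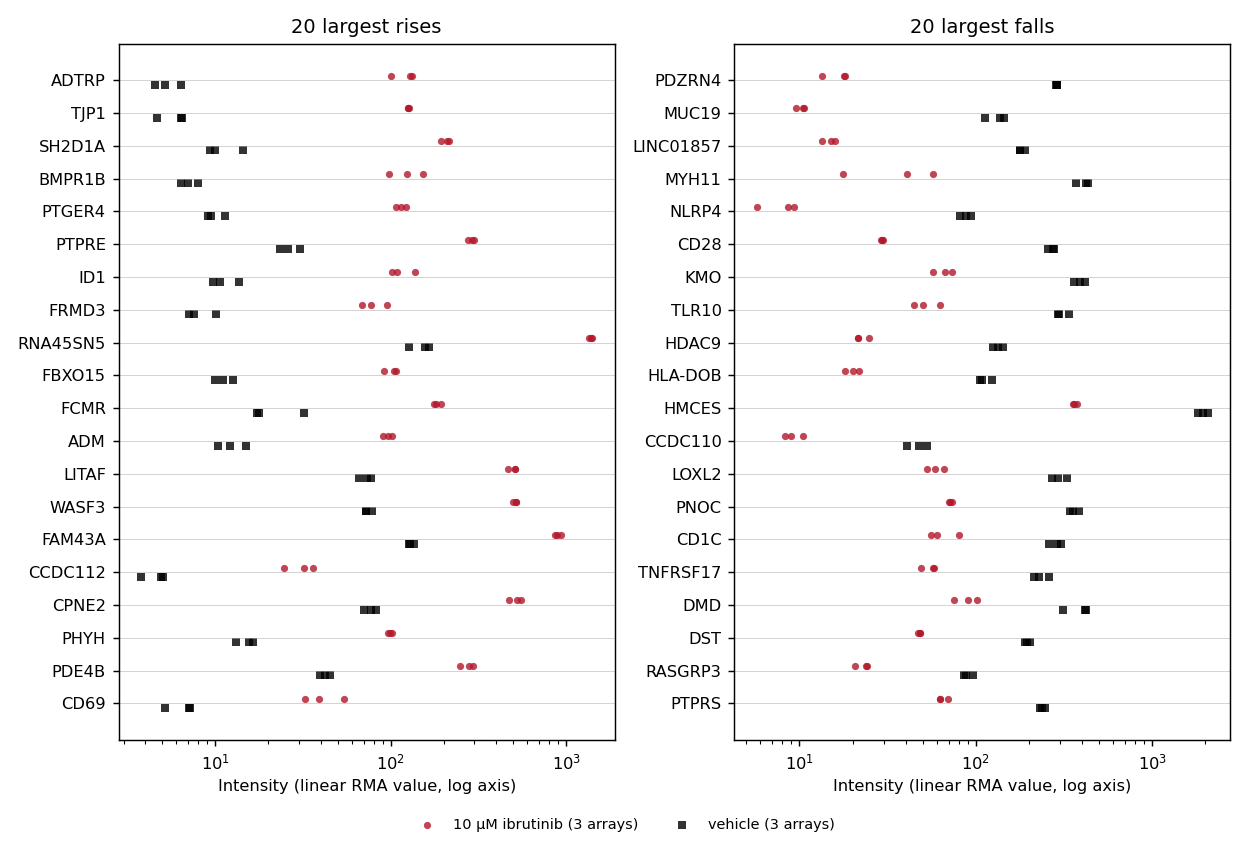
Intensity (linear RMA value, log axis) of each array for the 20 genes with the largest rises (left) and the 20 with the largest falls (right). Circles are the 3 arrays of 10 μM ibrutinib and squares the 3 of vehicle, and the groups do not overlap in any of the 40 genes, which their selection requires.

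At the lower concentration none of these genes was called. HLA-DOB had 61.3, 76.1 and 79.5 with 1 μM ibrutinib against 109, 123 and 106 with vehicle, without overlap. With 1 μM ibrutinib, against the same vehicle arrays, the log2 fold changes of the 20 risers lay between -0.22 and 0.59 and those of the 20 fallers between -0.65 and 0.15, with a smallest adjusted p of 0.282. Over all genes, 15.5% had all 3 arrays of 10 μM ibrutinib above all vehicle arrays and 17.7% had all 3 below, so separate groups alone are common here.

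**Figure D3:**
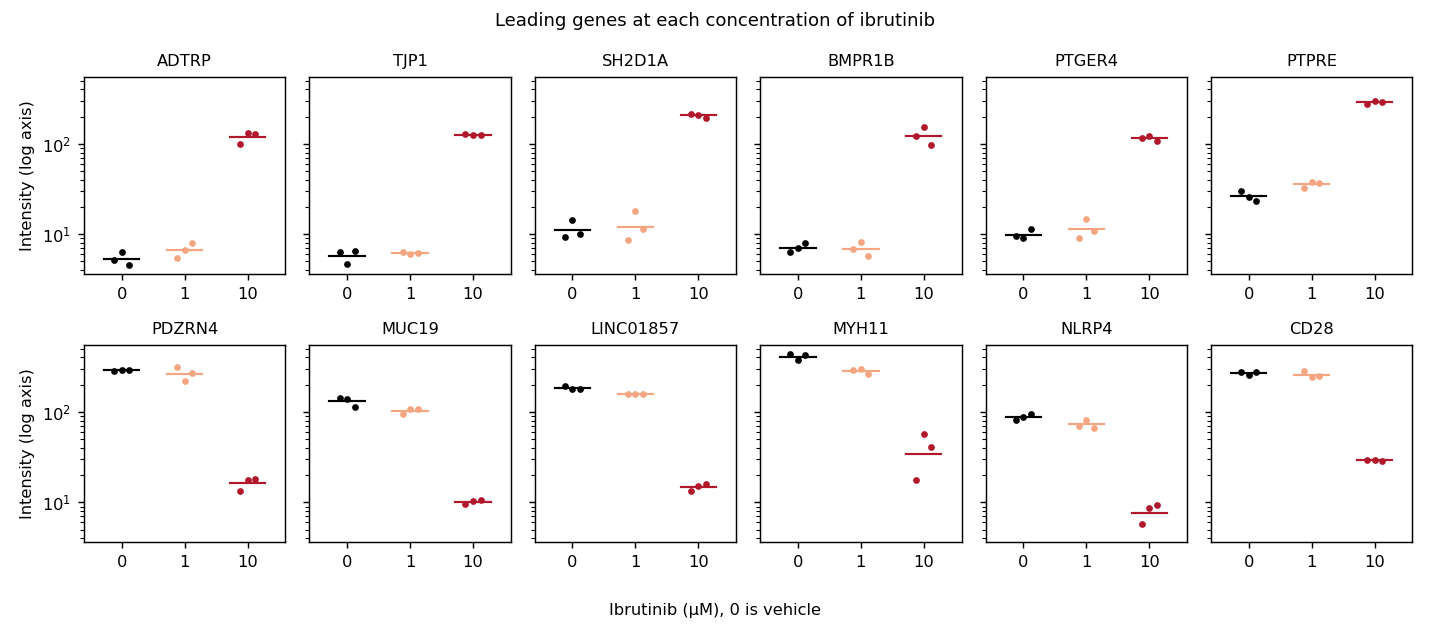
Intensity (log axis) of the 6 genes with the largest rises (top row) and the 6 with the largest falls (bottom row) in vehicle (0), 1 μM and 10 μM ibrutinib, with 3 arrays and their geometric mean at each. The step lies between 1 and 10 μM, and CD28 has 29.7, 29.4 and 29.0 at 10 μM against 279, 257 and 273 with vehicle.

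Genes of the bone morphogenetic protein pathway rose at several levels, from receptor to target. Of 47 measured members of the BMP, activin and TGF-beta list, 12 rose (25.5%, against 6.71% of all genes) and 3 fell (6.38%, against 5.82%), and the median was 0.03. Beside BMPR1B and ID1, SMAD1, a transcription factor that BMP receptors activate, had 1595, 1723 and 1686 with 10 μM ibrutinib and 660, 713 and 658 with vehicle. SMAD7, an inhibitor of the pathway, had 196, 193 and 187 against 55.9, 50.3 and 52.0 with vehicle. Activator and inhibitor thus stood on the same side. The other 8 that rose, named after their values were seen, were the inhibitor SMAD6 (1.80), the BMP-responsive SMAD9 (0.86), the ligand BMP7 (1.04), the receptor TGFBR1 (1.15), the repressor TGIF1 (0.96), and ID2 (1.45), ID3 (0.80) and ID4 (0.75), relatives of ID1. ID3 had 4856, 4911 and 4924 with 10 μM ibrutinib, against 2790, 2777 and 2876 with vehicle, and did not overlap. SMAD3, LTBP1 and ACVR1C fell, by 0.30, 0.44 and 0.51 on the log2 scale. The falls numbered 1 without vehicle array C or ibrutinib array B.

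Notch genes leaned the same way, with 8 of 29 higher and 1 lower, against 6.71% and 5.82% of all genes, and a median of 0.08. MAML2 and MAML3, coactivators of Notch, rose by 1.82 ± 0.11 and 1.40 ± 0.09 (standard error), and ADAM10, the protease that cuts Notch receptors, by 0.80 ± 0.10. MAML3 rose in 1 of 3 probe sets. HES1, a Notch target, had 120, 142 and 140 with 10 μM ibrutinib and 61.2, 69.9 and 58.4 with vehicle on its brightest probe set, but only 1 of its 3 probe sets rose and their median was -0.18. DTX4, a ubiquitin ligase of the pathway, fell by 0.70. In the WNT and Hedgehog list 6 of 43 rose and 2 fell. The receptor FZD3 (0.63), the transcription factor LEF1 (0.53) and CTNNB1, the central protein beta-catenin (0.34), were among the rises, and the ligand WNT5A (-1.09) and the receptor-removing ligase RNF43 (-1.09) were the falls. The methods' t-test left 2 rises there, and CTNNB1 was not called without vehicle array A or C or ibrutinib array B (adjusted p from 0.0634 to 0.0896).

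**Figure D4:**
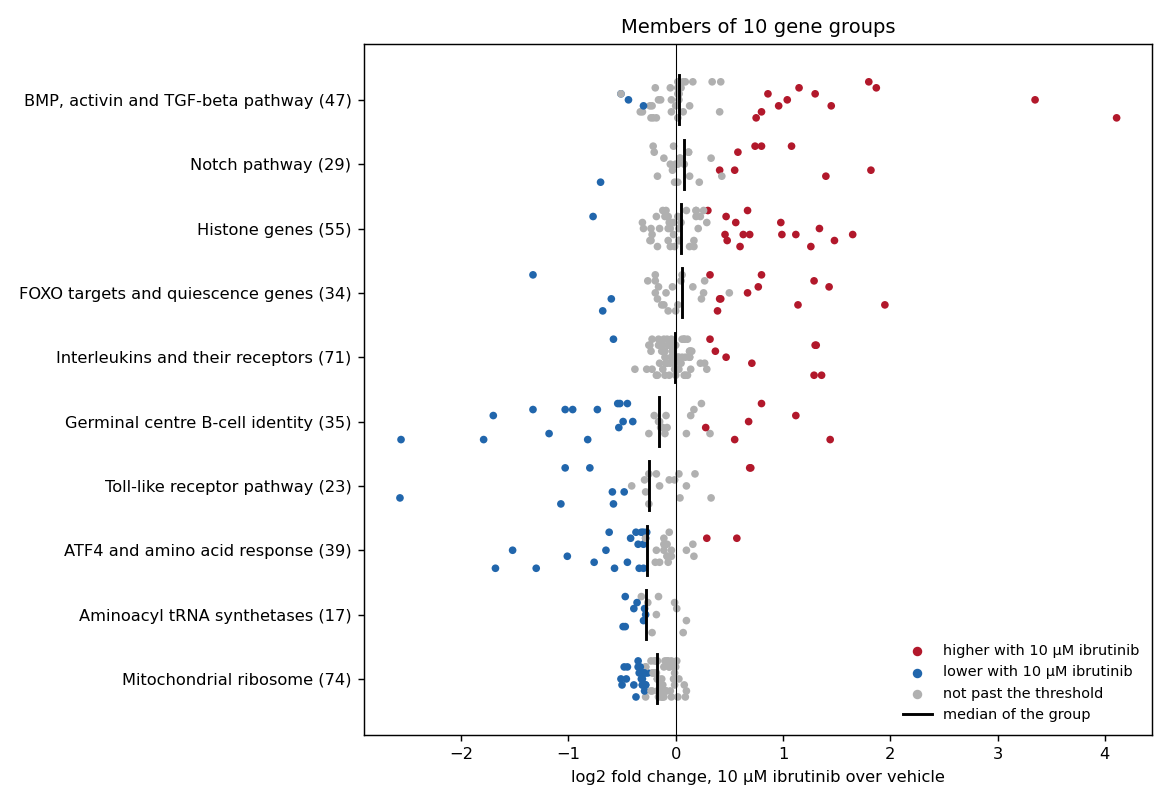
log2 fold change, 10 μM ibrutinib over vehicle, of every measured member of 10 gene groups, with the number of members in parentheses. Red members rose, blue members fell, grey members did not pass the test, and the black bar is the group's median, which is 0.03 for the BMP list and -0.28 for the tRNA synthetases.

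In the lists of cytokine receptors and early response genes, more members rose than fell in the main fit. Over all genes 6.71% rose and 5.82% fell. Of 71 interleukins and interleukin receptors, 48 of them dim, 8 rose and only IL4R fell (-0.58, named after its value was seen), or 2 genes without ibrutinib array C. IL7R, the interleukin-7 receptor, had 1256, 1235 and 1211 with 10 μM ibrutinib and 516, 500 and 500 with vehicle. IL2RA, the alpha chain of the interleukin-2 receptor, had 188, 188 and 184 against 74.5, 81.1 and 71.2 with vehicle. Both more than doubled with little spread, and IL17RA (1.36) and IL23A (1.30), a cytokine subunit of which 1 of 4 probe sets rose, were of like size. Of 25 genes of STAT and SOCS signaling, 6 rose and 2 fell, among them the kinases JAK1 (1.03 ± 0.08, standard error) and PIM1 (1.38 ± 0.10) and the inhibitor SOCS1 (0.94 ± 0.08), with PIAS2, an inhibitor of STAT proteins, lower (-0.56 ± 0.10). Among 43 immediate early and activation genes 11 rose and 6 fell, with CD69, PIM1 and IER3 (0.95) among the rises and the Ras restraint gene SPRED1 (-1.54) and the ERK phosphatase DUSP5 (-0.73) among the falls. Those 11 rises were 7 without vehicle array B or C, 6 without ibrutinib array C and 6 by the methods' t-test.

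In the chemokine list, 44 of 58 members were dim, 4 rose (6.9%, close to the 6.71% of all genes) and none fell. ACKR3, a scavenger receptor of CXCL12, had 140, 147 and 133 with 10 μM ibrutinib and 30.2, 22.7 and 25.6 with vehicle. CXCR4, the signaling receptor of the same ligand, had 4197, 4123 and 4108 against 2249, 2551 and 2550 with vehicle, and the lymph node homing receptor CCR7 had 16.4, 17.0 and 15.7 against 7.22, 5.69 and 5.26. The groups were apart in all 3 genes. CXCL16 (0.37) is a weak call, lost with any 1 array left out (adjusted p from 0.0593 to 0.141). Of 42 members of the TNF family, 7 rose and 4 fell, against 6.71% and 5.82% of all genes. The death ligand TNFSF10 (1.74), lymphotoxin beta LTB (1.27), CD27 (1.12) and the death receptor FAS (1.23) rose, and BCMA is the largest fall.

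Genes that FOXO factors drive or that mark resting cells rose in 11 of 34 cases and fell in 3, with a median of 0.06. Over all genes 6.71% rose and 5.82% fell. TXNIP, which restrains glucose uptake and binds thioredoxin, had 367, 369 and 373 with 10 μM ibrutinib and 101, 91.1 and 95 with vehicle. MXI1, an antagonist of MYC, had 498, 505 and 503 against 181, 196 and 180 with vehicle. The cell cycle inhibitor CDKN1B, named after its values were seen, had 296, 313 and 306 against 121, 146 and 150 with vehicle. These genes were higher in every treated array. Among the 3 that fell was BCL6 (-1.33 ± 0.08, standard error), which FOXO factors are known to induce. By the methods' t-test the rises numbered 7.

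Promoter windows of 300 bases, from 250 before to 50 after the start, were taken from RefSeq (GRCh38.p14) to show where letters of the FOXO and ATF4 elements lie in genes of both groups. A window was found for 1081 of the genes that rose, 928 of those that fell and 15384 of all tested, and 1 window per gene was searched on both strands. The FOXO letters GTAAACA, or TGTTTAC on the other strand, were in 47 windows of genes that rose (4.35%) and 12 of those that fell (1.29%). They were in 2.62% of all genes tested and 3.41% of all 27305 windows. The ATF4 letters TGATGCAA, or TTGCATCA, were in only 3 windows of genes that rose (0.278%) and 11 of those that fell (1.19%). They were in 0.722% of genes tested and 0.923% of all windows. Among the lists, 5 of 14 tRNA synthetases and 2 of 32 ATF4 genes with a window held the ATF4 letters, and 3 of 29 FOXO genes held the FOXO letters. A match is a description of the letters and was not tested as a site. Shown are CHAC1 and AARS1, which fell, with the ATF4 letters in capitals, and TXNIP and BTG1, which rose, with the FOXO letters in capitals, each 5' to 3' on the gene's own strand. The windows lie at chr15:40953221-40953520 (plus strand) for CHAC1, chr16:70289457-70289756 (minus) for AARS1, chr1:145996530-145996829 (minus) for TXNIP and chr12:92145797-92146096 (minus) for BTG1, a gene that restrains cell division.
CHAC1: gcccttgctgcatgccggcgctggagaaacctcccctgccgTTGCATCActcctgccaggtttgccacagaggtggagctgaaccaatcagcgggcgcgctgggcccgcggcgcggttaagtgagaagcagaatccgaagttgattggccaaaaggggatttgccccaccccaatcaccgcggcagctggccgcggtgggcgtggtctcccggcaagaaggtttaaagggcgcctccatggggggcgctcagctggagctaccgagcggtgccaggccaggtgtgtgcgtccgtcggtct
AARS1: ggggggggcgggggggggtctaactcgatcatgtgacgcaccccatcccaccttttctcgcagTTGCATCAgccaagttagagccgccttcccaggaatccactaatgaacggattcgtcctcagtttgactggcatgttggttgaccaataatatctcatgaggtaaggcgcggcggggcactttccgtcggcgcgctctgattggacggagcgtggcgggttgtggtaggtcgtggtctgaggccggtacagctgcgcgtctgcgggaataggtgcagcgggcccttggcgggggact
TXNIP: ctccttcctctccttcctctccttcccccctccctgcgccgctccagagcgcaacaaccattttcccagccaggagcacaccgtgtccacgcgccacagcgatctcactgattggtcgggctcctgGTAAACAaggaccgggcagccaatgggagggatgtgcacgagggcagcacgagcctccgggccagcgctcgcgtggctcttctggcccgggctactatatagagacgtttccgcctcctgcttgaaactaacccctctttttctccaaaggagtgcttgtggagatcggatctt
BTG1: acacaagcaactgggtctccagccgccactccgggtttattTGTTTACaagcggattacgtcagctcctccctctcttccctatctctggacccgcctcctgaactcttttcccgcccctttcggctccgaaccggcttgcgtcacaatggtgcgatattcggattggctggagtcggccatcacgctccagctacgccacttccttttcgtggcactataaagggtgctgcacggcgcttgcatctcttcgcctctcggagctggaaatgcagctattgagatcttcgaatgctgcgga
The capitals begin 209, 187, 124 and 209 bases before the start in the order of the lines. BTG1, chosen for its window, had 1475, 1583 and 1726 with 10 μM ibrutinib and 1003, 978 and 1024 with vehicle. For the other 6 elements searched (MYC and TFEB E-box CACGTG, E2F TTTCGCG, cyclic AMP response element TGACGTCA, NF-kB GGGACTTTC, antioxidant response element TGACNNNGC and KLF GGGTGTGG) the shares of risers were 8.79%, 1.48%, 2.87%, 0.463%, 14.8% and 1.94% in that order. Those of fallers were 9.70%, 2.80%, 3.23%, 0.539%, 15.1% and 3.02%, and those of all genes tested 8.90%, 1.88%, 2.67%, 0.371%, 14.8% and 3.18%. The same letters were in 7.43%, 1.35%, 1.98%, 0.366%, 13.6% and 3.22% of all windows.

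Genes of amino acid supply and of tRNA charging fell far more often than they rose. Of 39 measured ATF4 and amino acid response genes, 19 fell and 2 rose, with a median of -0.27. For comparison, 5.82% of all genes fell, and 9.03% of those not dim. SLC7A11, the cystine importer, had 56.1, 70.9 and 65.6 with 10 μM ibrutinib and 206, 203 and 204 with vehicle. CHAC1, which breaks down glutathione, had 103, 117 and 126 against 319, 351 and 318 with vehicle. ATF5, a transcription factor related to ATF4, had 622, 683 and 605 against 1538, 1575 and 1573 with vehicle. Each was lower in every treated array by more than 2-fold, and SESN2, a leucine sensor, fell by 1.01 ± 0.09 (standard error). The enzyme ASNS, which makes asparagine, and the stress factor DDIT3, both named after their values were seen, fell by 0.65 and 0.76. The count of 19 was 14 without ibrutinib array B, but 11, 10 and 10 without vehicle array A, B or C, 8 and 11 without ibrutinib array A or C, and 12 by the methods' t-test. The 2 rises, SLC38A2 (0.57) and ALDH18A1 (0.29), were 1 without any one of the 6 arrays. ATF4 itself (-0.19), SHMT2 (-0.15), TRIB3 (-0.11), MTHFD2 (-0.11) and ATF3 (-0.08) were among the members that did not pass the test.

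The falls of tRNA synthetases, which load amino acids on tRNA, were smaller. Of 17 cytosolic enzymes 8 fell and none rose, with a median of -0.28 and 14 values below 0. None of them was dim, and 9.03% of all genes not dim fell. GARS1, for glycine, had 2730, 2833 and 2816 with 10 μM ibrutinib and 3836, 3913 and 3835 with vehicle (-0.47 ± 0.08, standard error). SARS1, for serine, AARS1, for alanine, and YARS1, for tyrosine, fell by 0.49, 0.47 and 0.39. Without 1 array the 8 became 6 (vehicle A), 4 (vehicle B or C), 5 (ibrutinib A or B) or 4 (ibrutinib C).

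Nuclear genes for the mitochondrial ribosome showed small falls of the same kind. Of 74 members, none dim, 22 fell and none rose, and 68 values were below 0, with a median of -0.17. Over all genes not dim, 9.03% fell and 10.4% rose. MRPL35 had 1347, 1344 and 1408 with 10 μM ibrutinib and 1953, 2015 and 1874 with vehicle (-0.51 ± 0.07, standard error). MRPS33 (-0.50), MRPL4 (-0.48) and MRPL41 (-0.46), proteins of the same particle, followed, and no member fell by more than 0.51. At this size the count turns on the model: it was 36 with an intensity trend in limma, 35 with an offset of 16, and 11, 10, 8, 8, 11 and 13 without vehicle array A, B or C or ibrutinib array A, B or C. Of 71 respiratory chain genes 8 fell and none rose (median -0.14), led by NDUFS7 (-0.58) of complex I and ATP5MC1 (-0.49) of ATP synthase. This count was 34 with the trend and 3 without any one of the vehicle arrays or ibrutinib array A or B. Of 34 proteasome subunits 5 fell and none rose (median -0.16), among them PSMB9 of the immunoproteasome (-0.43). Here the count was 18 with the trend, 3 without ibrutinib array C and 2 without any one of the vehicle arrays or ibrutinib array A or B.

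Genes of cell growth were measured in 4 lists. Of 60 cytosolic ribosomal proteins only RPL26L1 fell (-0.36) and none rose, with a median of 0.02. Of 37 genes of ribosome biogenesis, POLR1E (-0.51), a subunit of RNA polymerase I, and IMP4 (-0.47), which processes ribosomal RNA, fell, and PUS7 (0.31), a pseudouridine synthase, rose, a call lost without any 1 array (adjusted p from 0.0617 to 0.144). Of 50 DNA replication genes 4 fell (8%, against 5.82% of all genes and 9.03% of genes not dim) and none rose. The 4 were E2F2 (-0.41), E2F1 (-0.40), TK1 (-0.39), which salvages thymidine, and RFC1 (-0.32), a clamp loader. That count was 2 without vehicle array B or ibrutinib array A or B and 8 with the intensity trend. Of 44 mitosis genes 5 fell (11.4%) and 2 rose (4.55%). The kinases PLK1 (-0.54) and AURKA (-0.42) fell, and the phosphatase CDC25B and the checkpoint kinase BUB1 rose by 0.58 each. The falls numbered 3 without vehicle array C or ibrutinib array C, and 10 with the trend.

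Histone genes had the largest share of rises less falls among the 57 groups drawn. Of 55 measured, 22 of them dim, 16 rose and 1 fell, with a median of 0.05. Over all genes 6.71% rose and 5.82% fell. H2BC3 had 78.0, 82.0 and 69.3 with 10 μM ibrutinib and 28.3, 20.8 and 24.4 with vehicle. H2AC17 had 95.6, 119 and 93.9 against 40.3, 32.8 and 37.6 with vehicle. H2AC8 (1.34 ± 0.14, standard error) and H3C2 (1.26 ± 0.13) moved alike, and all 4 are replication-dependent histones of the chromosome 6 cluster. Genes of this cluster are near-identical copies, so a probe set may read more than its own gene. The methods' t-test called 9 of them higher. The E2F letters were in 9 of 49 windows of histone genes and the cyclic AMP response letters in 7 of 49. Among 18 histone deacetylases and sirtuins HDAC7 (0.54) and HDAC4 (0.63) rose beside the fall of HDAC9, all 3 of class IIa, and the list had more falls than rises under 4 alternatives. Of 72 lysine methyltransferases and demethylases 7 rose and 4 fell, none by more than 0.61 either way. Their members KDM3A (0.51), KDM7A (0.47) and SETD1B (0.49) were higher and KDM6B (-0.45) lower, and the 7 rises became 4 without vehicle array B and 3 without any other. The 4 falls were 2 without vehicle array A or B or ibrutinib array B. Zinc finger genes named ZNF, mostly repressors with unknown targets, stood near the background, with 27 of 466 higher and 15 lower, the falls being 8 without vehicle array B and 9 without ibrutinib array A.

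**Figure D5:**
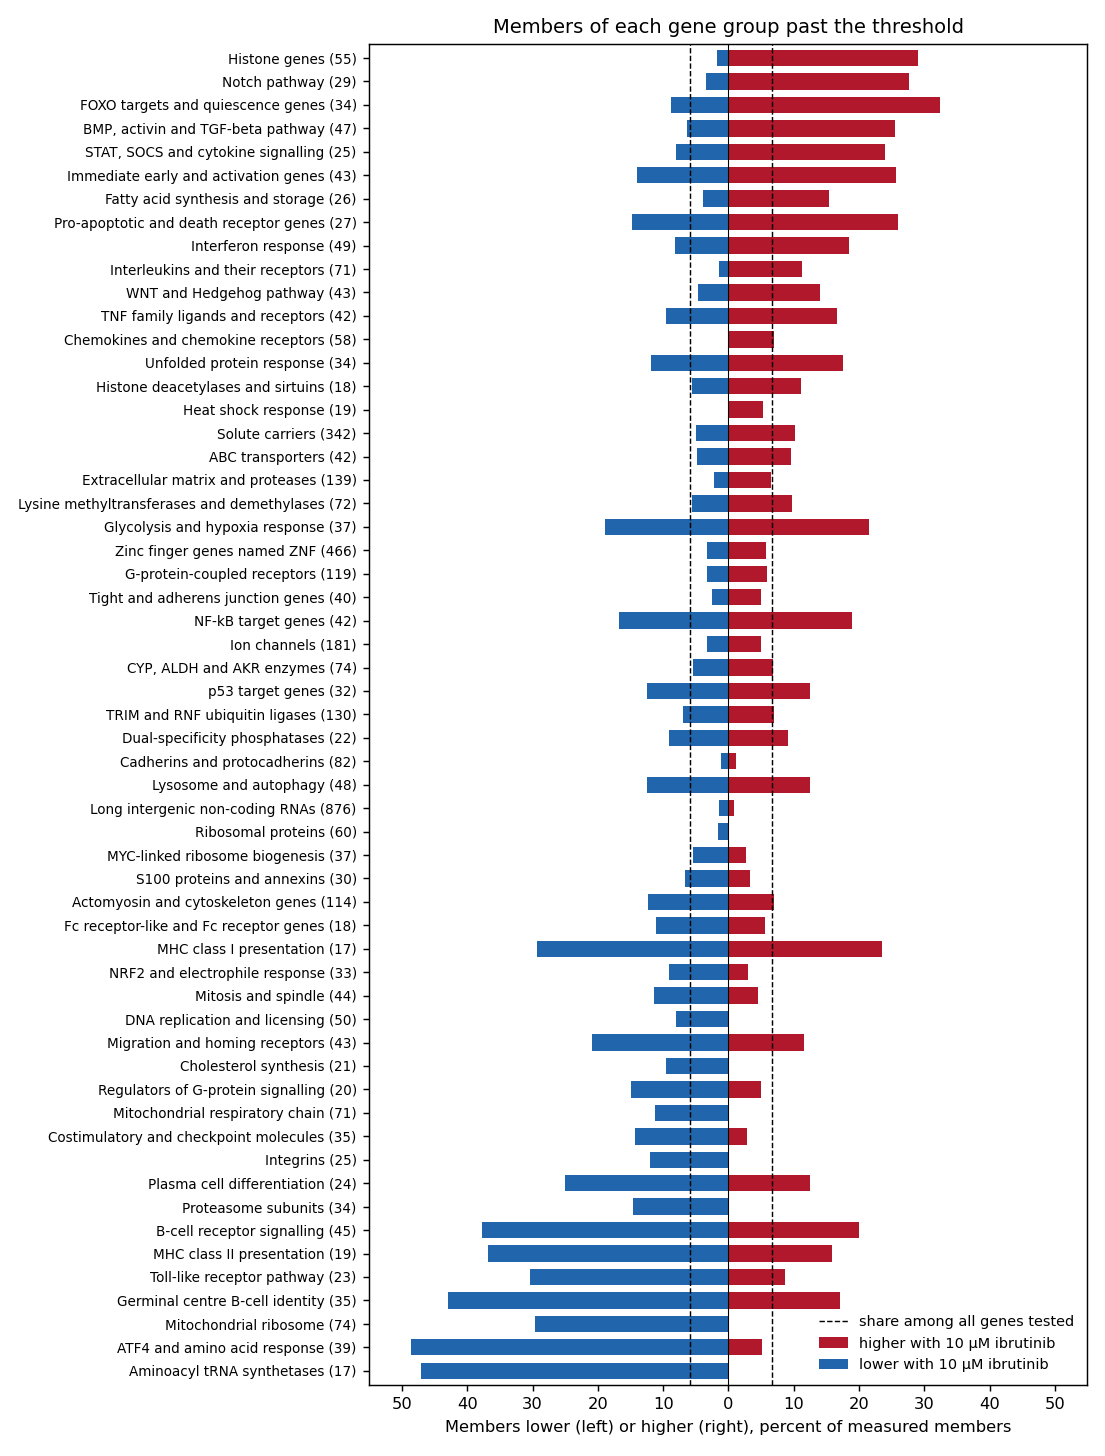
Share of the measured members of each gene group that fell (blue, left) or rose (red, right) with 10 μM ibrutinib, in percent, for 57 of 60 groups, each with 15 or more measured members, whose number is in parentheses. The dashed lines are the shares among all genes tested, 5.82% for falls and 6.71% for rises, and groups are ordered by the share of rises minus the share of falls.

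Germinal centre identity genes fell in 15 of 35 cases and rose in 6, with a median of -0.16. Over all genes 5.82% fell and 6.71% rose. BCL6, the master repressor of the germinal centre, had 1351, 1345 and 1467 with 10 μM ibrutinib and 3467, 3368 and 3613 with vehicle. P2RY8, which confines B cells to the follicle, had 336, 337 and 359 against 1096, 1124 and 1122 with vehicle. VPREB3, a partner of immunoglobulin assembly, had 256, 290 and 298 against 949, 996 and 963 with vehicle. The groups did not overlap, and IRF8 (-0.96) and POU2F2 (-1.18), B-cell transcription factors named after their values were seen, stood on the same side. MME, the surface protease CD10, went the other way with 1519, 1551 and 1512 with 10 μM ibrutinib and 559, 565 and 560 with vehicle. The memory marker CD27 also rose (1.12 ± 0.08, standard error). In the shorter list of germinal centre markers, BCL6 and MYBL1 (-1.03, on 1 of 3 probe sets) fell and MME rose. SERPINA9 (0.17), GCSAM (-0.14) and the dim LMO2 (-0.12), the others measured there, did not pass the test. Of 24 plasma cell genes 6 fell and 3 rose. The transcription factor IRF4 (-0.86) and EAF2 (-1.81), of which 1 of 3 probe sets fell, were lower, and XBP1, the driver of secretion, was higher (0.50, adjusted p = 0.0536 by the methods' t-test).

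In the list of MHC class II presentation falls outnumbered rises. Of its 19 genes 7 fell and 3 rose, against 5.82% and 6.71% of all genes. HLA-DQB1 had 117, 114 and 123 with 10 μM ibrutinib and 225, 259 and 212 with vehicle, and CD74, the invariant chain, had 957, 1058 and 1076 against 1702, 1917 and 1805. CTSH, a cathepsin, had 583, 622 and 633 with 10 μM ibrutinib, against 144, 152 and 141 with vehicle. CTSS (0.51) and LGMN (0.82), also proteases and named after their values were seen, were the remaining rises. HLA genes are close relatives, so their probe sets may read one another. Of 17 class I genes 5 fell and 4 rose. The transporter TAP2 (-0.83) and PSMB9 (-0.43) fell, and NLRC5, which drives class I transcription (0.97), the peptide trimmer ERAP2 (0.68) and HLA-E (0.55) rose. The falls there were 3 without vehicle array B or C or ibrutinib array A or B, and 2 by the methods' t-test.

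Among receptors that B cells use to sense microbes or to meet T cells, falls outnumbered rises. In the Toll-like receptor list 7 of 23 fell and 2 rose, against 5.82% and 6.71% of all genes, with a median of -0.25. LY86, the MD-1 partner of CD180, had 533, 549 and 571 with 10 μM ibrutinib and 1153, 1222 and 1092 with vehicle, and LY96, the MD-2 partner of TLR4, had 55.7, 56.3 and 70.4 against 120, 126 and 124. TLR3, which senses double-stranded RNA, rose by 0.70 ± 0.11 (standard error). Of 35 costimulatory and checkpoint genes 5 fell, and CD27 rose, with a further rise without vehicle array A (2 in all). CD86, the ligand of CD28 on B cells, had 119, 121 and 112 with 10 μM ibrutinib and 261, 242 and 256 with vehicle. In the SLAM family 4 of 11 fell and 2 rose: CD48 (-1.23), SLAMF1 (-1.76) and CD84 (-0.64) were lower while the adaptor SH2D1A was higher. The 2 rises were 1 without any one of the arrays other than vehicle A. Of 18 Fc receptor and Fc receptor-like genes FCRLA (-0.62) and FCRL3 (-0.88, adjusted p = 0.0525 by the methods' t-test) fell, and FCMR rose. B-cell receptor signaling genes, described only in outline here, fell in 17 of 45 cases and rose in 9, with VAV1 (-1.12), an activator of Rac, and RAC2 (-0.83) lower and their relative VAV3 (1.10) higher.

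Migration and homing genes moved both ways. Of 43 in the list, 9 fell and 5 rose, against 5.82% and 6.71% of all genes. GPR18, a receptor of B and T cells, had 85.3, 101 and 105 with 10 μM ibrutinib and 340, 367 and 324 with vehicle, and S1PR4, a sphingosine phosphate receptor, had 152, 144 and 157 against 62.1, 59.0 and 56.3. PLXNB2, a semaphorin receptor, rose by 1.13. Of 25 integrins 3 fell and none rose, namely ITGAL of LFA-1 (-0.48), ITGAE (-0.39) and ITGB7 (-0.34), and all 3 are weak calls, with 1 left without ibrutinib array A. Of 114 actomyosin and cytoskeleton genes 14 fell and 8 rose, against the same 5.82% and 6.71%. Beside MYH11, the actin-binding LIMA1 (-1.37) and PDLIM2 (-1.20) fell, and the LIM protein CSRP2 rose (2.02 ± 0.15, standard error), with 53.9, 44.0 and 52.6 with 10 μM ibrutinib and 9.76, 16.1 and 11.9 with vehicle.

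Genes of cell junctions and of matrix were often dim, and few passed the test. Of 40 tight and adherens junction genes TJP1 and CTNNB1 rose and CLDN23, a claudin, fell (-1.71 ± 0.10, standard error), with CTNNB1 lost without vehicle array A or C or ibrutinib array B. Of 82 cadherins and protocadherins PCDH9 rose (1.55) and PCDH7 fell (-0.37), a call at low intensity that was lost without vehicle array B or C or ibrutinib array B or C (adjusted p from 0.0628 to 0.15). Of 139 matrix and protease genes 9 rose and 3 fell, smaller shares than the 6.71% and 5.82% of all genes. The protease ADAM28 (0.80, adjusted p = 0.0586 by the methods' t-test) and the laminin chain LAMC1 (0.61) were higher and ADAM19 was lower (-1.23), with 183, 188 and 190 with 10 μM ibrutinib and 445, 441 and 431 with vehicle. Of 119 G-protein-coupled receptors named GPR, ADGR, P2RY, LPAR, S1PR or PTGER, 7 rose and 4 fell. These shares too were below the 6.71% and 5.82% of all genes. Of 20 regulators of G-protein signaling RGS10 rose (0.33, lost without vehicle array A or C or ibrutinib array C). RGS13 (-0.82), RGS14 (-0.40) and RGS5 (-0.65) fell.

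Single transporters and enzymes changed on both sides. Of 342 solute carriers 35 rose and 17 fell, against 6.71% and 5.82% of all genes and 10.4% and 9.03% of those not dim. SLC22A5, the carnitine importer, had 88.2, 95.5 and 86.1 with 10 μM ibrutinib and 30.1, 26.4 and 21.2 with vehicle. SLC2A5, the fructose transporter, had 3809, 3939 and 3730 against 1869, 1957 and 1819 with vehicle, and the sulfate transporter SLC26A2 rose by 1.62 ± 0.11 (standard error). The 35 rises were 23 by the methods' t-test, and the 17 falls were 11 by it, 11 without vehicle array B or C and 10 without ibrutinib array C. Of 26 fatty acid genes 4 rose and 1 fell, the fall being lost without any one of the arrays other than vehicle C. ELOVL6, which lengthens saturated fatty acids, had 1747, 1674 and 1526 with 10 μM ibrutinib and 506, 484 and 508 with vehicle, and LPIN1, a phosphatidate phosphatase, had 768, 801 and 754 against 356, 352 and 353. LPIN2 (0.42) and ELOVL5 (0.37) were higher by less. Of 21 cholesterol genes PMVK (-0.68) and MVD (-0.33), consecutive enzymes of the mevalonate pathway, fell and none rose, and MVD was lost without vehicle array A or B or ibrutinib array B or C.

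In the list of glycolysis and hypoxia response 8 of 37 rose and 7 fell, against 6.71% and 5.82% of all genes. P4HA2, a collagen prolyl hydroxylase, had 130, 142 and 147 with 10 μM ibrutinib and 39.5, 42.0 and 36.7 with vehicle, and it stood with ADM and MXI1 among the rises. ENO2, an enolase, had 48.4, 56.5 and 52.9 against 135, 132 and 112 with vehicle. Hypoxia-inducible genes thus lay on both sides, and the falls numbered 4 without any one of the vehicle arrays or ibrutinib array A. Of 48 lysosome and autophagy genes 6 rose and 6 fell, against the same 6.71% and 5.82%. CTSZ (-0.91), another cathepsin, RRAGD (-0.96), which ties amino acid supply to mTORC1, and TFEB (-0.85), the transcription factor of lysosome genes, were lower while CTSH was higher. Of 42 ABC transporters ABCA1, the cholesterol exporter (-1.08), and the dim ABCA6 (-0.69) fell, and 4 rose, ABCC4 (0.79) and ABCD4 (0.54) among them. Of 74 cytochrome P450, aldehyde dehydrogenase and aldo-keto reductase genes 5 rose (6.76%) and 4 fell (5.41%), about the shares of all genes (6.71% and 5.82%), led by ALDH5A1 (0.75) and CYP39A1 (-1.15), and falls outnumbered rises under 5 alternatives. The 5 rises were 3 and 2 without vehicle array A and B, 1 without vehicle array C or ibrutinib array B, and 2 without ibrutinib array C. Of 181 ion channels 9 rose (4.97%) and 6 fell (3.31%), fewer than among all genes, with SCN3A (1.13), a sodium channel, PIEZO1 (0.75), a mechanosensitive channel, and ORAI2 (0.78), a calcium channel, higher and P2RX5 (-0.79), a channel opened by ATP, lower.

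Death genes moved in both directions, with somewhat more rises than falls, and of the survival genes only CFLAR passed the test. Of 27 pro-apoptotic and death receptor genes 7 rose and 4 fell, with a median of 0.08. Over all genes 6.71% rose and 5.82% fell, and among those not dim 10.4% and 9.03%. HRK, a BH3-only activator of apoptosis, had 996, 1044 and 1092 with 10 μM ibrutinib and 424, 419 and 405 with vehicle, and 4 of its 5 probe sets rose. FAS had 154, 162 and 159 against 64.7, 69.1 and 68.1 with vehicle, and TNFRSF1A, the TNF receptor, rose by 0.90. BAX, the pore-forming protein, fell by 0.52 (named after its value was seen). Of 10 anti-apoptotic genes only CFLAR, the inhibitor of caspase 8, fell (-0.35), on 1 of its 14 probe sets while another rose, and the call was lost without vehicle array C or ibrutinib array A (adjusted p 0.0509 and 0.056). Of 32 p53 target genes 4 rose and 4 fell. TP53INP1, a promoter of cell death and autophagy, had 791, 794 and 826 with 10 μM ibrutinib and 136, 118 and 143 with vehicle, on 1 of 3 probe sets, and GADD45A, a stress protein, had 1089, 1060 and 1040 against 359, 375 and 363.

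Stress and inflammatory programs differed in how many members moved. Of 19 heat shock genes only HSPB1 rose (0.81) and none fell. Of 33 genes of the NRF2 response, which meets electrophiles, GCLC of glutathione synthesis rose (0.27) and SLC7A11, SRXN1 (-0.53) and FTL (-0.24) fell, the calls of GCLC and FTL being lost without any 1 array. Of 34 unfolded protein genes 6 rose (17.6%, against 6.71% of all genes and 10.4% of genes not dim). In the same list 4 fell (11.8%, against 5.82% and 9.03%). EDEM1 (0.68), which clears misfolded proteins, XBP1 and WFS1 (0.50 each) were higher and SDF2L1, a chaperone partner, lower (-0.68), and falls outnumbered rises under 4 alternatives. The rises were 3 without vehicle array A or B or ibrutinib array A, and the falls were 2 without any one of the arrays other than ibrutinib C. Of 42 NF-kB targets 8 rose (19%) and 7 fell (16.7%). LTB had 2967, 3002 and 3405 with 10 μM ibrutinib and 1254, 1351 and 1279 with vehicle, while PLEK, the protein kinase C substrate, had 89.8, 109 and 101 against 323, 364 and 329. Of 49 interferon genes 9 rose (18.4%) and 4 fell (8.16%), with IRF1 (1.11), MX1 (1.03), IFITM2 (0.66) and IRF2 (0.62) among the rises, and the falls were 2 without vehicle array A or ibrutinib array B. Of 22 dual-specificity phosphatases DUSP22 (-0.63) and DUSP5 fell, and DUSP10 (0.57) and DUSP26 (0.46) rose. These 2 rises were 0 without ibrutinib array C and 1 without any other array.

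The remaining families stood near or below the background. Of 130 TRIM and RNF ubiquitin ligases 9 rose and 9 fell, against 6.71% and 5.82% of all genes. RNF144B had 1966, 1990 and 2082 with 10 μM ibrutinib and 4036, 4284 and 4104 with vehicle, and TRIM38 (-0.78) and RNF19B (-0.61) also fell. Of 876 long intergenic non-coding RNAs, of which 739 were dim, 13 fell and 7 rose. LINC02909 (-1.81), LINC02245 (-1.16) and LINC00662 (-0.75) followed LINC01857, and the falls were 5 by the methods' t-test and 8 without vehicle array B or ibrutinib array A or C. The rises were 4 without vehicle array B or ibrutinib array B or C. Of 30 S100 proteins and annexins S100Z (-0.75) and ANXA6 (-0.60) fell and ANXA2 (0.44) rose, a call lost without vehicle array A or B or ibrutinib array B or C. Among the zinc finger genes ZNF101 (1.27) was the largest rise and ZNF215 (-1.18) the largest fall.

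Most markers of other cell types were dim. Of 16 T and NK cell markers 10 were dim and only ZAP70, a kinase also known from lymphoma cells, rose (0.66, adjusted p = 0.0856 by the methods' t-test). Of 9 myeloid markers 7 were dim, and of 14 stromal and epithelial markers 9 were dim, and no member of either list passed the test. The summed intensity of the stromal and epithelial list ran from 486 to 513 with 10 μM ibrutinib and from 542 to 596 with vehicle, and was lower in every treated array. PECAM1, an adhesion molecule that endothelium shares with blood cells, had 277, 298 and 282 against 332, 373 and 321 with vehicle (-0.26, adjusted p = 0.081 by limma), and 3 of its 5 probe sets fell. COL1A2, COL3A1, LUM, DCN and EPCAM were dim, while COL1A1, KRT8, VWF and PDGFRB were not. The myeloid list summed to 75 to 83 with 10 μM ibrutinib and 79 to 84 with vehicle, and the T and NK list to 231 to 274 and 230 to 259. What part other cells have in any of the changes was not tested.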

How the data were processed

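Total RNA of OCI-Ly7 cells was labelled with biotin and hybridized to Affymetrix U133 Plus 2.0 arrays, 12 in all. The authors normalized the arrays with RMA (version not given in the sources used here) and deposited intensities on the linear scale. The log2 of each intensity was taken with nothing added. Of 54675 probe sets, 62 controls were left out, and limma 3.58.1 (R 4.3.3) was fitted to 54613 over all 12 arrays, with 1 mean per group, 8 residual degrees of freedom, eBayes and two-sided tests, and the Benjamini-Hochberg method. Single symbols were given to 41091 probe sets, several to 1801 and none to 11721, of which 41037 were updated through RefSeq, and a gene is its brightest probe set. The plan allowed for log2 values and for linear ones. The same fit was also run on simulated arrays built from the real means and spreads.

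The members and the 60 gene lists and 5 marker lists were chosen with earlier results of these data known. Named are the 20 largest rises and falls without overlap between groups, up to 4 called members per list by adjusted p, and all other genes in the text were chosen after their values were seen. A weak call is one that at least 1 alternative ended. HDAC4, PIAS2, RGS5, WFS1, SETD1B, ABCA6, FZD3, PSMB9 and DUSP5 are weak by the methods' t-test, which is not marked where they are named. LPIN2 is weak without vehicle array C. The sample letters A to C did not pair the arrays. Raw scans were not used here. The results of 1 of the 60 gene lists are not reported here.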

Additional observations from a re-analysis of the deposited data

How the results depend on the processing

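Against 2944 probe sets higher and 2523 lower with 10 μM ibrutinib, the methods' t-test with Benjamini-Hochberg adjustment gave 1761 and 1737. At a fold change of 1.5 an offset of 16 before log2 left 807 higher and 525 lower, since it shrinks changes at low intensity. The log2 fold change of HES1 was -0.18 with the median over its probe sets, which reverses it. With the sample letter as a replicate block, 2735 probe sets were higher and 2289 lower. The letters share only a name: the residual correlations within letters A, B and C were -0.0753, -0.0204 and -0.078. Leaving out each array in turn gave 2103 to 2581 higher and 1692 to 1912 lower. A further quantile normalization gave 2986 and 2790, the ACTB difference as a covariate 2645 and 2109, and the median of the normalization controls, an alternative chosen after seeing the data, 2372 and 2493. At an unadjusted p under 0.05, 11657 probe sets differed. Of 226 named genes, 188 kept their call in every alternative fit and 38 lost it in at least 1, none reversing there. Dim probe sets lie near the background of the array, which limits the precision of fold changes in the 7735 dim genes, of which 71 were called higher and 64 lower. A gene with several probe sets is described by 1 of them. In 24 genes probe sets were called in both directions.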
